A study of Homo sapiens with 12 samples.

Results

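The regions described here are consensus BG4 sites in the upstream promoter. BG4 is an antibody fragment that binds G-quadruplexes, and a consensus region is a stretch of peaks in which each peak was overlapped by 1 bp or more by a peak in both other lists. A region was kept when its midpoint lay 150 to 1000 bp upstream, by the strand of the gene, of the nearest protein-coding transcription start site (TSS). This gave 539 of the 6081 consensus regions, or 8.86%, and 14.8% of the 3653 regions within 1000 bp of a protein-coding TSS. They lay upstream of 528 TSSs. The peaks themselves chose these regions, so their number, position and length are given as a description with no test. They are set beside the 2741 core regions, whose midpoint lay under 150 bp from the TSS, and the 373 downstream regions, whose midpoint lay 150 to 1000 bp into the gene.

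The study profiled G-quadruplexes by chromatin immunoprecipitation and sequencing in HEK293 cells, a line derived from human embryonic kidney; the labels name no edit and no treatment of the cells. The only condition was sampled in 3 biological replicates, called BioRep1, BioRep2 and BioRep3. Each has 3 technical BG4 libraries, made from formaldehyde-fixed, sonicated and RNase-treated chromatin, and 1 input made without the antibody step. The inputs were not analysed here, and separate cultures are not stated for the biological replicates. The 9 libraries held 372030 to 846114 reads in the 58381 windows of 400 bp around annotated TSSs, and 5.15% to 9.97% of the windows of a library were empty. Technical libraries of a biological replicate differed by no more than sampling noise, so they were averaged to 1 value for each biological replicate.

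A G-quadruplex is a structure that single-stranded DNA can take where runs of guanine lie close together: guanines of 4 runs stack as planar tetrads held by potassium ions. On the opposite strand the same site reads as runs of cytosine. In human chromatin, BG4 sites are known to lie mostly in open, GC-rich promoters of active genes, and the promoter just upstream of a start site also carries GC boxes, bound by SP1 and its relatives, and CCAAT boxes, bound by NF-Y.

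Promoter sequences were available from RefSeq (GRCh38.p14) for 415 of the 536 nuclear regions, and the consensus region covered all 250 bases before the RefSeq start in 238 of them. The 8 of these with the most runs of 3 or more guanines or cytosines had 27 to 31 runs, and 4 of the 8 are shown for their different layouts of runs. Each is written 5′ to 3′ on the strand of the gene, and capitals mark bases in a motif of 4 runs of GGG or longer with 1 to 7 bases between runs, on either strand (CCC on the strand shown).
CCNE1: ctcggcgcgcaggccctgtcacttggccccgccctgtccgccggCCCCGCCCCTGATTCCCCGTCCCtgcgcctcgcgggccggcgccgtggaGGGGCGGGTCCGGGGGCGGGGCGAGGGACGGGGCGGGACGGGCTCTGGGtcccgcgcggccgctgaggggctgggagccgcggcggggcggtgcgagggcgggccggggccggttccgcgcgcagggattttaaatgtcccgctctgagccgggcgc
ARRDC1: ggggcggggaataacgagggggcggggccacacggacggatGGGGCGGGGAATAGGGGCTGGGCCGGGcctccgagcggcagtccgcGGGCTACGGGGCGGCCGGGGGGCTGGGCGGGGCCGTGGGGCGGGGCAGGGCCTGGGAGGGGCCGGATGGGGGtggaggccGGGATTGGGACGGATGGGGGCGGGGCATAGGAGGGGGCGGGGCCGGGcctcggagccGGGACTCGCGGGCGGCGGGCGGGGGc
LMF2: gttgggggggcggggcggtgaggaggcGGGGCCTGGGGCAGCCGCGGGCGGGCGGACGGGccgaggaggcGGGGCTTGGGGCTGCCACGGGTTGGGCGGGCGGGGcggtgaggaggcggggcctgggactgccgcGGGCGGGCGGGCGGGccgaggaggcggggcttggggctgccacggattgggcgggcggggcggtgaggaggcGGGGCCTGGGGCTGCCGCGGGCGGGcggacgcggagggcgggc
GNA11: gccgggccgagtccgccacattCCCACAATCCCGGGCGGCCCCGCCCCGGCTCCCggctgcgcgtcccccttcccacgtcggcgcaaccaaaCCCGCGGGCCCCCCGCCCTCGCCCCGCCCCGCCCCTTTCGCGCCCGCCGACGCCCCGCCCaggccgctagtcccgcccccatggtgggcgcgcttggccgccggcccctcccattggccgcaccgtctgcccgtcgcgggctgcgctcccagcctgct

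The CCNE1 sequence lies at chr19:29811741-29811990 on the plus strand, holds 27 runs and has the motif on both strands. CCNE1 encodes cyclin E1, which drives entry into S phase. The ARRDC1 sequence lies at chr9:137605436-137605685 on the plus strand, with 31 runs and 171 of its 250 bases in a motif, all in guanine runs of the coding strand. The LMF2 sequence lies at chr22:50507703-50507952 on the minus strand, with 30 runs and 108 bases in the motif on the coding strand. The GNA11 sequence lies at chr19:3094112-3094361 on the plus strand, and its motif lies on the template strand, as cytosine runs. GNA11 encodes an alpha subunit of the heterotrimeric G proteins.

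The next 2 promoters also lay wholly inside a consensus region, but had the fewest runs and no motif; they were chosen after their values were seen.
ERCC4: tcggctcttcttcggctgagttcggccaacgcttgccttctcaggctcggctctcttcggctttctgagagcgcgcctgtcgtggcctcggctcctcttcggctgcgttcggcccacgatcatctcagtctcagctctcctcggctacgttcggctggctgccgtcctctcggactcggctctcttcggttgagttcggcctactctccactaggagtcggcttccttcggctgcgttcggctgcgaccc
EXOC8: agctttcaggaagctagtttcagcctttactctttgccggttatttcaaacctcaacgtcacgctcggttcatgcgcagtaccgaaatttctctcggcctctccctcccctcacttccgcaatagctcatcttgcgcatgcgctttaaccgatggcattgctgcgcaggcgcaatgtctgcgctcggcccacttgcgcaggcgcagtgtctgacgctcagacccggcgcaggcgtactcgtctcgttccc

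The ERCC4 sequence lies at chr16:13919904-13920153 on the plus strand and holds 2 runs of guanine or cytosine of length 3 or more. ERCC4 encodes a subunit of the endonuclease that cuts DNA in nucleotide excision repair. The EXOC8 sequence, at chr1:231337853-231338102 on the minus strand, holds 5 such runs. EXOC8 encodes a subunit of the exocyst, which tethers secretory vesicles. Read density, in CPM (counts per 1000000 reads in windows), was read in the 400 bp window around the TSS. The ERCC4 window had 84.4, 106 and 98.4 CPM in BioRep1, BioRep2 and BioRep3, and the CCNE1 window had 126, 104 and 113 CPM. The values of the EXOC8 window were 91.4, 92.9 and 79.2 CPM, and those of the ARRDC1 window were 82.6, 75.6 and 87.7 CPM. The promoters without the motif thus had read densities in the range of those with many runs. KIAA0930, with 28 runs, had 38.7, 38.3 and 38.6 CPM, below both promoters that lacked the motif.

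Over 300 bases, from 250 before to 50 after the RefSeq start, 195 of 408 promoters of upstream regions held the motif of 4 runs of GGG, or 47.8% (95% Wilson interval 43.0% to 52.6%). The share was 37.5% of 2173 promoters with a core region only (35.5% to 39.6%), 23.6% of 267 with a downstream region, 25.0% of 5473 peak-free promoters and 29.6% of all 10610 protein-coding promoters with a sequence. Peak-free promoters are those whose window no peak of any list touched, with no consensus region within 1000 bp. The interval for upstream regions did not overlap the one for core regions; promoters were not sampled as replicates, and no test was made. The motif lay on the coding strand in 24.8% of the promoters of upstream regions and on the template strand in 26.7%, and some had it on both. Among 193 promoters with the motif in the 250 bases before the start, the consensus region held motif bases in 149, or 77.2%. Where the region lay wholly outside these 250 bases, 27 of 67 still had the motif in them, or 40.3% (29.4% to 52.3%). Where the region covered all 250 bases, 107 of 238 had it, or 45.0% (38.8% to 51.3%). Over the same 250 bases it was in 28.2% of all 10610 protein-coding promoters.

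Along the promoter, the share of bases in the motif was highest at 41 to 50 bases before the start in upstream promoters, at 13.9%. Promoters with a core region only had 8.57% at the same place, and peak-free promoters had 6.77%. At 101 to 110 bases before the start the shares were 10.7% in promoters of upstream regions, 6.25% with a core region only and 4.78% in peak-free promoters. Within the bases searched, the motif was densest nearer to the start than the midpoints that define the regions. The search began 250 bases before the start, while midpoints lay 150 to 1000 bp upstream, so most of that span was not searched. A motif that crossed the far end of the searched bases could not be counted. The position of the maximum was not particular to upstream regions. It was the same with a core region only, and 51 to 60 bases before the start in peak-free promoters (7.12%). Median window density was 68.8 ± 4.03 CPM for upstream regions with the motif (195 promoters) and 66.5 ± 4.70 CPM for those without it (213 promoters; SD, n = 3 biological replicates), and it was higher with the motif in all 3 replicates. With a core region only the medians were 65.0 ± 3.00 CPM with the motif and 64.9 ± 3.70 CPM without it, and in BioRep2 the value with the motif, 64.1 CPM, was below the value without it, 66.6 CPM. In peak-free windows the values were 13.5 ± 0.512 CPM with the motif and 10.0 ± 0.495 CPM without it. The replicates read the same promoters, so these SDs and a shared direction do not measure the spread between promoters. Over the 525 nuclear windows with an upstream region, the middle 50 percent lay between 48.0 and 83.4 CPM.

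**Figure D1:**
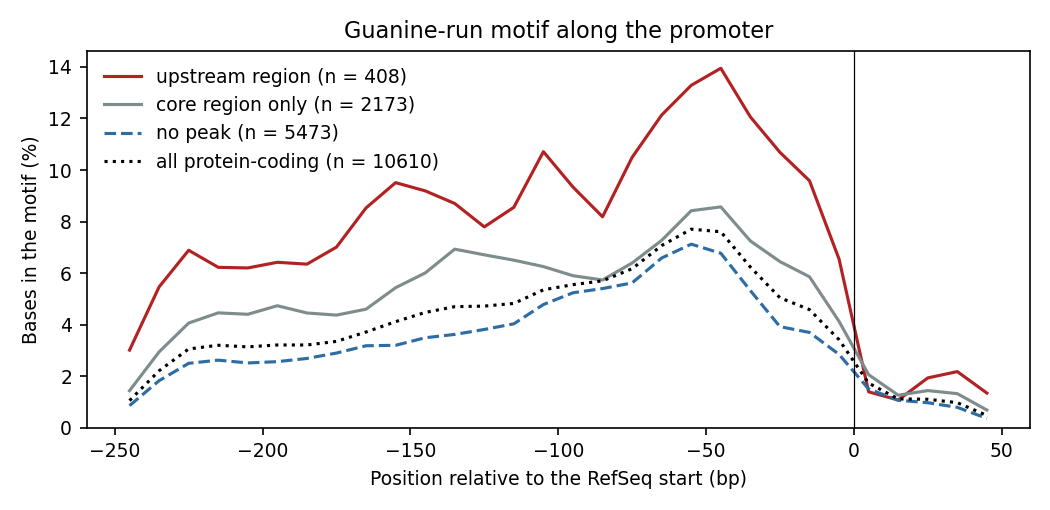
Percent of bases in the motif of 4 GGG runs (1 to 7 bases between runs, either strand) in bins of 10 bases, by position relative to the RefSeq start, for promoters of upstream regions, of core regions only, without a peak, and all protein-coding promoters. The line for upstream regions lies above the others at all positions before the start and reaches 13.9% at 41 to 50 bases before it.

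Other promoter letters were counted in the same 300 bases. The GC box core GGGCGG, searched on both strands and sharing letters with guanine runs, was in 89.7% of the promoters of upstream regions, against 85.0% with a core region only, 40.6% in peak-free promoters and 59.2% of all. CCAAT, on either strand, was in 55.1% of the promoters of upstream regions (50.3% to 59.9%), against 47.3% with a core region only (45.2% to 49.4%), 34.4% in peak-free promoters and 38.7% of all. TATAAA in the last 50 bases before the start, on the coding strand, was in 8 of 408 promoters of upstream regions, or 1.96%, against 1.29% with a core region only, 7.29% in peak-free promoters and 4.41% of all. Median GC content was 70.0% for upstream regions, 68.0% for core regions, 61.3% for downstream regions and 56.7% for peak-free promoters. Upstream and core regions had both the higher motif shares and the higher GC content, and the part of base composition in these shares was not tested.

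Most upstream regions lay close to the core promoter and reached into it. The midpoints of the 536 nuclear regions had a median of 213.5 bp upstream of the TSS, and the middle 50 percent lay between 175 and 318 bp. In the bin of 150 to 199 bp there were 232 regions, and in that of 600 to 1000 bp there were 49. The regions had a median length of 426.5 bp, with a range of 80 to 1088 bp, against 318 bp for core and 324 bp for downstream regions. Their 5′ edges had a median of 456 bp upstream of the TSS and their 3′ edges a median of 3.5 bp downstream of it. They spanned the TSS itself in 280 of 539 cases, or 51.9% (47.7% to 56.1%), against 96.0% of core regions, and 440 of the 536 nuclear regions touched the 400 bp window. The other 96 lay wholly upstream of the window, with a median length of 273.5 bp and a median midpoint 606.5 bp upstream.

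**Figure D2:**
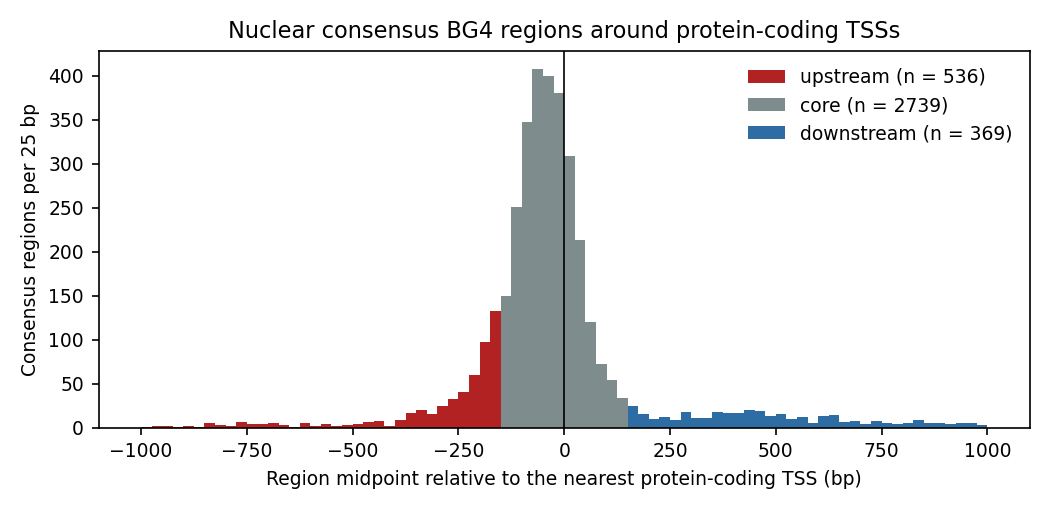
Number of nuclear consensus regions per 25 bp by the position of their midpoint relative to the nearest protein-coding TSS, coloured by class. Upstream regions (536) form the left shoulder of a single peak centred on the core regions (2739), and downstream regions (369) are spread more evenly.

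**Figure D3:**
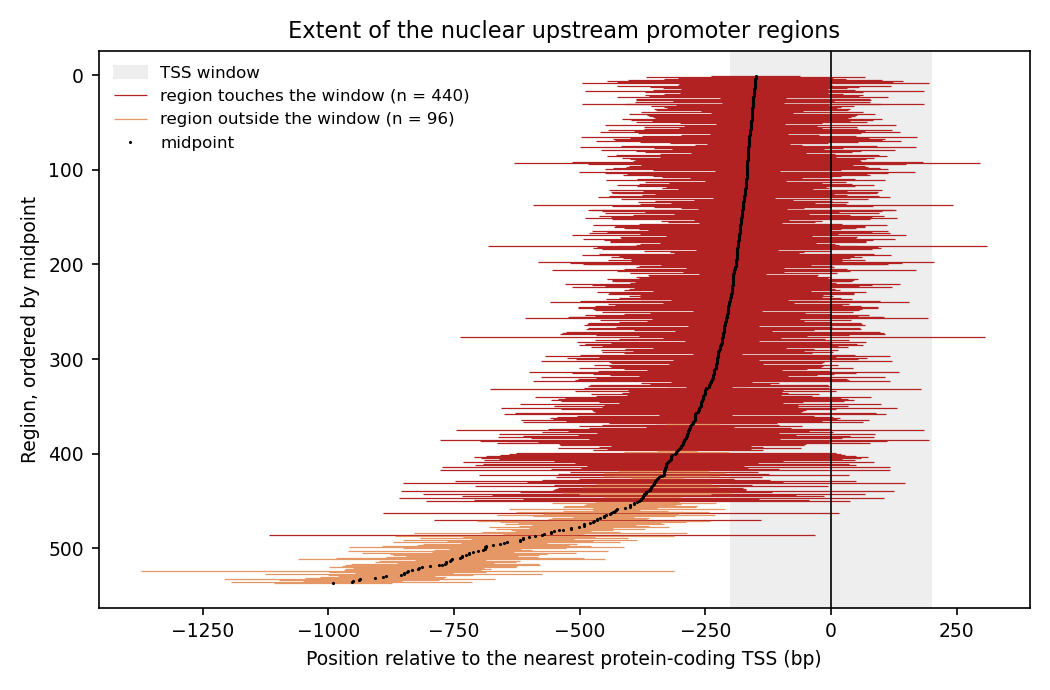
Each horizontal line is the extent of 1 nuclear upstream region, in bp relative to the nearest protein-coding TSS, ordered by midpoint (black dots); the grey band is the 400 bp window. The 440 regions that touch the window include all but 1 with midpoints under 300 bp, and the 96 outside it lie in the lower rows.

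The inner limit of the rule cut through the shoulder of a continuous distribution. Just inside it, at 150 bp, were the regions at SLC44A2, TBC1D23 and ERAP1, with 52.8, 75.4 and 64.8 CPM in the window. Just outside, at 149 bp, were those at CLK3-AS1, TRIM59 and SLC60A2, with 76.5, 92.0 and 75.5 CPM. At the outer limit, RAC3 at 991 bp, USP9X at 953 bp and TBCC at 952 bp were inside, with 46.5, 35.0 and 57.2 CPM, and RAP2A at 1001 bp, MEX3B at 1006 bp and SOX12 at 1019 bp were outside, with 52.4, 82.6 and 65.4 CPM.

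The position of the midpoint varied between the replicate lists. Taking each list's own peaks in a region, the midpoint fell 150 to 1000 bp upstream for 422 of 539 regions in BioRep1 (78.3%), 486 in BioRep2 (90.2%) and 510 in BioRep3 (94.6%), and in all 3 lists for 392, or 72.7% (68.8% to 76.3%). The lists held 7931, 11665 and 13049 peaks in all. The median length of a nuclear region covered by peaks was 264 bp in BioRep1, 370.5 bp in BioRep2 and 397.5 bp in BioRep3, so the list with the fewest peaks also drew the shortest ones in these regions. A region was covered by 1 peak in 79.2% of cases in BioRep1, 88.5% in BioRep2 and 92.2% in BioRep3, and by several in the rest.

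Reads at the TSS were about as dense below an upstream region that reached the window as at core regions, and lower where the region stayed outside it. The median density of the 440 windows touched by an upstream region was 63.2, 67.8 and 71.4 CPM in BioRep1, BioRep2 and BioRep3 (67.5 ± 4.12 CPM; SD, n = 3), against 64.7 ± 3.36 CPM in 2649 windows with a core region only. The ratio of the medians was 1.04 ± 0.0127. Both sets were chosen by peaks in or at the window, so this ratio is a description. The 94 windows that lay downstream of an upstream region without being touched had medians of 40.4, 40.6 and 41.3 CPM, or 40.8 ± 0.480 CPM, against 10.5 ± 0.449 CPM in 7756 peak-free windows. The windows not touched were 3.89 ± 0.205 times as dense as peak-free windows, with ratios of 3.67, 3.90 and 4.08, and the direction was the same in all 3 biological replicates. Peak-free windows were chosen for having no peak, while untouched windows could hold another peak, so the direction was set in part by the choice of windows and this ratio too is a description. A 2-sided exact sign-flip permutation test on 3 replicates cannot go below p = 0.25, the value it gave.

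The size of that ratio varied with what else lay near the window. In the 52 untouched windows with no other consensus region within 1000 bp the median was 31.7 ± 1.43 CPM, and the ratio to peak-free windows was 3.01 ± 0.0521. In the 24 of these that also had no peak of any list in the window the median was 18.8 ± 0.897 CPM, and the ratio was 1.79 ± 0.0690. Relative to windows with a core region, the untouched windows were at 0.631 ± 0.0273 times the median. All 525 nuclear windows with an upstream region were at 1.54 ± 0.0378 times the median of downstream regions. The window was touched by 82.2% of the 539 upstream regions but by 35.1% of the 373 downstream regions, so this ratio is a description. The untouched windows, at 40.8 ± 0.480 CPM, were near the windows of downstream regions, at 41.4 ± 0.794 CPM. By distance of the midpoint, median density was 73.4 ± 4.47 CPM at 150 to 199 bp, 64.9 ± 4.50 CPM at 200 to 249 bp, 60.1 ± 2.32 CPM at 250 to 299 bp, 49.3 ± 2.13 CPM at 300 to 399 bp, 42.4 ± 1.70 CPM at 400 to 599 bp and 43.9 ± 1.83 CPM at 600 to 1000 bp. The last bin was not below the one before it in any of the 3 biological replicates. From the nearest bin to the farthest, the region touched the window in 232 of 232, 100 of 100, 60 of 61, 45 of 60, 3 of 34 and 0 of 49 cases. Windows in the nearer bins thus counted reads of the region itself, and the fall with distance is a description.

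**Figure D4:**
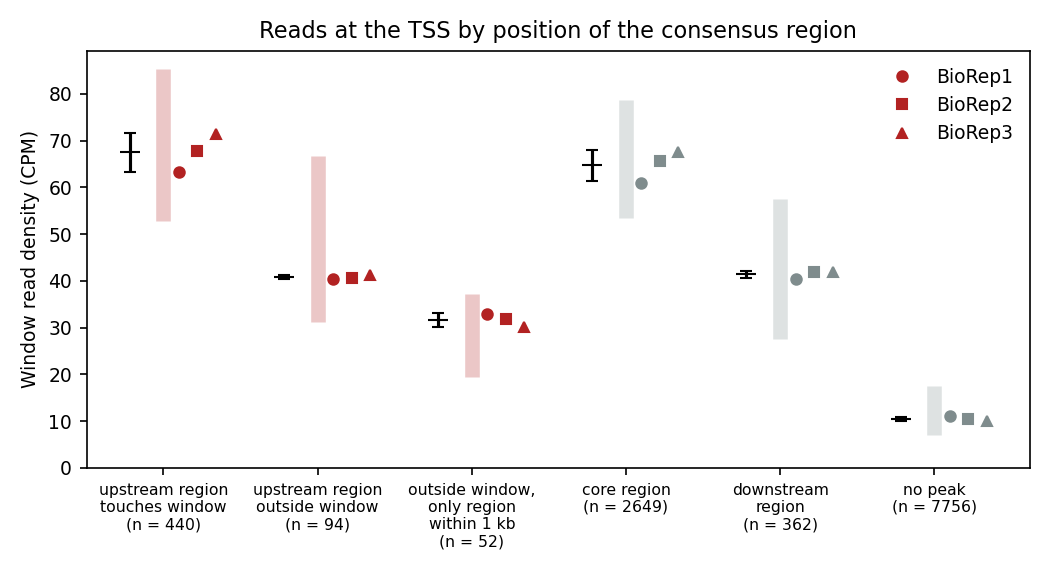
Window read density (CPM) by the position of the consensus region: coloured points are the medians over windows in BioRep1, BioRep2 and BioRep3, black lines the mean of these ± SD, and pale bars the middle quartiles of single windows. Windows touched by an upstream region (67.5 CPM) lie with those of core regions (64.7 CPM), and windows that an upstream region does not touch (40.8 CPM) lie between these and peak-free windows (10.5 CPM).

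No window passed the threshold for a difference between the biological replicates in edgeR's quasi-likelihood test with Benjamini-Hochberg adjustment: 0 of 17499 windows tested were called, a background of 0%, and 0 of the 522 windows of upstream regions among them. At an unadjusted p under 0.05 there were 1379 windows in all (7.88%) and 41 of upstream regions (7.85%), and the lowest adjusted p of an upstream region's window was 0.362. DESeq2's likelihood ratio test also called 0 windows, with 334 in all and 11 of upstream regions at an unadjusted p under 0.05. Without the filter on low counts, 92 of 525 windows of upstream regions (17.5%) were at an unadjusted p under 0.05, against 6.73% of 56196 windows in all, and 0 of them and 25 in all were called. The shares thus differed with the filter, and why was not tested. These p-values measure the spread between technical libraries only.

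The label of these regions rests on the nearest protein-coding TSS, and in some of them another annotated start lay nearer. The midpoint was within 150 bp of another TSS window centre in 71 of 539 regions, or 13.2% (10.6% to 16.3%), against 20.6% of core and 13.7% of downstream regions. In 62 of the 71 such a start was on the opposite strand; 38 of the 71 had such a start without a name by position, 30 that of a long non-coding RNA and 2 that of a microRNA. With RefSeq starts added, the number was 173, or 32.1%, against 81.0% of core and 53.6% of downstream regions. The RefSeq start that named the window was not left out of this count. It lies within 200 bp of the window centre, so core regions meet it in large part by the rule. A RefSeq start of the same gene lay nearer than the window centre in 185 regions (34.3%), against 23.8% of core and 68.9% of downstream regions. This can be the start that named the window, so it need not be a further start. A RefSeq start of another protein-coding gene lay nearer in 59 (10.9%), against 2.04% of core and 5.36% of downstream regions. Examples of the last kind were PPAT, where the nearer start was that of PAICS, another enzyme of purine synthesis, ORC6 with VPS35, SNRPD3 with GUCD1, and HSPE1 with HSPD1, which encode the mitochondrial chaperonins. Such a region was upstream of the named gene and nearer to the start of the other.

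An opposite-strand TSS up to 1000 bp upstream was present for 125 of 539 regions, or 23.2% (19.8% to 26.9%), against 23.6% of core regions, 10.2% of downstream regions and 15.0% of all 14218 protein-coding windows. In 77 of the 125 (61.6%) the midpoint lay between both TSSs, and in only 32 (25.6%) was it nearer to the protein-coding TSS that named it. The midpoint lay in the body of another gene in 134 regions (24.9%), against 15.1% of core and 18.8% of downstream regions. It lay in that of another protein-coding gene in 69 of the 539 (12.8%), against 6.60% and 9.65%. It lay in no RefSeq gene body in 405 (75.1%), against 74.3% of core and 0% of downstream regions. The 0% follows from the rule, which placed 370 of 373 downstream midpoints in the body of the named gene.

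Where the midpoint of an upstream region lay inside another TSS window, named for another gene or without a name by position, that window usually held more reads. The midpoint lay in such a window for 85 regions, and for 20 pairs the other window and the own window did not overlap. Among these, the other window was denser in 17 pairs, and in 16 it was denser in all 9 libraries; in 0 pairs was the own window denser in all 9. The other windows had medians of 61.0, 65.6 and 70.6 CPM in BioRep1, BioRep2 and BioRep3, and the own windows 36.0, 36.7 and 40.6 CPM. The midpoint of the region lay in the other window, so its higher density is a description. EBF1, a transcription factor of B-cell development, had 9.35 ± 2.89 CPM in its own window, while the window of the opposite-strand LINC02202 had 63.8 ± 5.89 CPM (SD, n = 3 biological replicates). GSK3B, a kinase of Wnt and insulin signalling, had 58.0 ± 1.27 CPM, while an unnamed opposite-strand start had 109 ± 17.6 CPM. For ING2, an inhibitor of growth family protein that reads histone methylation, the window of the divergent ING2-DT had 65.1 ± 8.98 CPM and its own 21.1 ± 2.39 CPM. JUND and ECI2 were exceptions, with 84.1 ± 8.84 and 77.7 ± 5.72 CPM in their own windows and 57.5 ± 7.45 and 57.3 ± 4.90 CPM in those of MIR3188 and ECI2-DT. For EP300, HSPE1, PRRT2 and TRAPPC4 the other start was on the same strand and had no name by position, so it may belong to the same gene. These pairs are among the 16 above, so the denser window need not be that of another gene.

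More than 1 consensus region shared a TSS in 153 of 539 cases, or 28.4% (24.7% to 32.3%), at any distance. This share was 43.3% without BioRep1 and 18.0% where peaks had to overlap by 50% of both, and so rests on how regions were drawn. Counting those within 1000 bp of the TSS only, it was 67 (12.4%), against 3.43% of core and 22.8% of downstream regions. A core or downstream region lay at the same TSS for 47 upstream regions, or 8.72%. TMEM87B was an example: its upstream region had its midpoint 755 bp upstream and did not touch the window, which had 112, 120 and 127 CPM in BioRep1, BioRep2 and BioRep3. The upstream region of DDIT4, a stress-induced inhibitor of mTOR signalling, lay 938 bp upstream of a window with 113, 115 and 109 CPM. LSS, which encodes lanosterol synthase of the cholesterol pathway, had a region 459 bp upstream, at the start of MCM3AP-AS1, and 117, 115 and 111 CPM in its window. FARP2 had a region 759 bp upstream and 105, 114 and 108 CPM in its window. SNAP29, a SNARE protein of membrane fusion, had a region 452 bp upstream, in the body of PI4KA and nearer to its start, and 98.3, 104 and 120 CPM. Each of these 5 genes also had a core or downstream region at the same TSS, and none of their upstream regions touched the window, which in each was denser than the median core window; they were chosen for that density. SP1, SLC25A25 and ZNF503 each had 2 upstream regions.

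The 9 nuclear windows whose lowest library was highest were those of TLE4, B3GALNT2, EMD, DOP1B, DCBLD2, INPP5A, FAM76A, AFG3L2 and EEPD1. TLE4, a Groucho family corepressor, had 206, 238 and 250 CPM in BioRep1, BioRep2 and BioRep3, and the libraries ran from 196 to 280 CPM with a median of 234 CPM. Its upstream region was 975 bp long, reached 195 bp into the gene and had another consensus region at the same TSS. B3GALNT2, a glycosyltransferase of alpha-dystroglycan, had 176, 182 and 186 CPM and a region of 995 bp. EMD encodes emerin of the inner nuclear membrane, and its window had 165, 178 and 190 CPM. All of these regions spanned the TSS, and the window therefore counted reads of the region itself.

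The 8 windows with the lowest mean were those of EBF1, RYBP, CEMP1, BARHL2, PPP1R9B, GFI1B, MUC1 and BCL2L12, at 9.35 to 15.8 CPM. None of their regions touched the window, and the midpoints lay 492 to 820 bp upstream. RYBP, a subunit of variant Polycomb complexes, had 8.78, 14.6 and 13.3 CPM and a region 601 bp upstream. MUC1, a cell-surface mucin, had 15.9, 18.2 and 11.4 CPM and a region of 144 bp. BARHL2, a homeobox factor, had 15.5, 12.6 and 11.2 CPM. The highest single library among the 8 windows, at MUC1, had 26.0 CPM, and the lowest among the 9 windows above, at EEPD1, had 112 CPM, so the groups did not overlap; they were chosen for this. The 8 means lay near the peak-free median of 10.5 CPM. At GFI1B, named by position only, the region lay in the body of TSC1 and nearer to a RefSeq start of that gene. For RYBP, BARHL2, PPP1R9B and BCL2L12 a RefSeq start of the same gene lay nearer to the midpoint than the centre of the window used. That start can be the one that named the window and lie inside it. The midpoints at EBF1 and CEMP1 lay within 150 bp of the window centres of LINC02202 and MIR3178. At GFI1B, EBF1 and CEMP1 the low window was thus not that of the start nearest to the region.

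**Figure D5:**
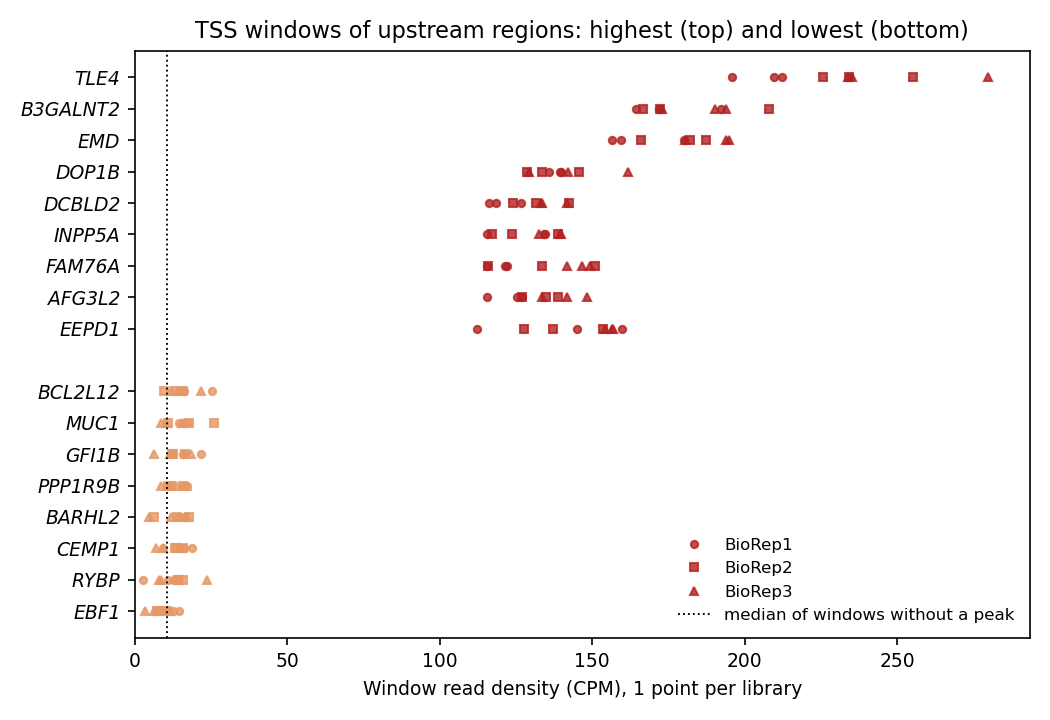
Window read density (CPM) in each of the 9 libraries for the 9 nuclear upstream regions with the highest lowest library (red, top) and the 8 with the lowest mean (orange, bottom); marker shape gives the biological replicate and the dotted line is the median of peak-free windows. TLE4 stands at 196 to 280 CPM, and EBF1, the lowest, averages 9.35 CPM.

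The 6 longest nuclear regions were drawn as 1 to 4 peaks in each list. HCFC1, host cell factor, a chromatin-bound coregulator, had a region of 1088 bp made of 4 peaks in BioRep1, 1 in BioRep2 and 2 in BioRep3. It ended 32 bp before the TSS, its midpoint lay within 150 bp of an opposite-strand start, and the RefSeq start of TMEM187 was the nearer one. The HCFC1 window had 46.5, 44.7 and 55.7 CPM. SETD5, a SET-domain chromatin protein, had a region of 1062 bp centred 842 bp upstream, in THUMPD3-AS1, and 81.9, 88.8 and 87.5 CPM in its window. MYL11, a regulatory light chain of fast skeletal muscle myosin, had a region of 1047 bp and 109, 135 and 138 CPM, with BioRep1 lowest. The PPAT region was 999 bp long and reached into PAICS, and its window had 75.5, 80.9 and 81.4 CPM.

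Of 13837 protein-coding genes with a nuclear window, 525 had an upstream region, or 3.79%, and 27 gene lists were counted beside this share with no test. Chromatin regulators had 12 of 58 genes with an upstream region (20.7%). They included the histone methyltransferases KMT2A, KMT2B, KMT2C and KMT5C, the demethylases KDM2A, KDM4B and KDM6A, and the acetyltransferases CREBBP and EP300. KDM2A had 79.1, 99.4 and 108 CPM, and CHD8, a chromatin remodeller, had 79.5, 95.6 and 82.6 CPM. Basic helix-loop-helix and leucine zipper factors had 5 of 28 (17.9%), among them HEY1, a Notch target, JUND, ID4, TFE3 and MNT. MAP kinase, AKT and mTOR signalling had 8 of 56 (14.3%), with both GSK3A and GSK3B and MTOR itself. MAP3K14, a kinase of the non-canonical NF-kappaB pathway, had 91.1, 97.8 and 108 CPM. The list of GC-box factors had 4 of 30 (13.3%): SP1, SP4, E2F3 and KLF13. SP1 had 59.6, 74.0 and 70.8 CPM in its window, and SP4 had 79.2, 93.9 and 110 CPM below a region 720 bp upstream. In the order of these 4 lists, 19 of 58, 6 of 28, 19 of 56 and 8 of 30 genes had a core region only. Among all 13837 genes 2649 did. Whether the list shares are particular to upstream regions was not tested.

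Chaperones had 7 of 55 genes with an upstream region (12.7%), including HSPA5 of the endoplasmic reticulum and the mitochondrial HSPA9 and HSPE1. RNA splicing factors had 8 of 88 (9.09%), with SRSF1, SRSF2 and HNRNPR, and homeobox and developmental factors had 10 of 121 (8.26%), including HOXB9, HOXC13, IRX3, IRX5, TBX2, TBX3 and PBX3. HOXC13 had 74.2, 81.3 and 77.2 CPM. Cyclins and cell cycle kinases had 4 of 51 (7.84%): CCNE1, CCNG2, WEE1 and the phosphatase CDC25A. Helicases and other quadruplex binding factors had 2 of 16, SP1 and DHX9. WEE1, a kinase that holds cells before mitosis, had 78.6, 102 and 113 CPM, with BioRep1 lowest. HNRNPR had 85.7, 109 and 101 CPM, and DNAJC3, an endoplasmic reticulum co-chaperone, had 82.8, 92.7 and 101 CPM. DHX9, an RNA and DNA helicase that can unwind quadruplexes, had 75.6, 52.0 and 57.8 CPM below a region of 138 bp, with BioRep1 highest. Shares of 4.30% to 6.67% were found for solute carriers (11 of 256), translation initiation and tRNA synthetases (3 of 67), small GTPases and their exchange factors (5 of 108), ubiquitin enzymes (12 of 226), DNA repair (2 of 36), the proteasome (2 of 33) and DNA replication (2 of 30). TRIM24, a ubiquitin ligase and chromatin reader, had 103, 113 and 118 CPM, and SLC2A8, a glucose transporter, had 89.4, 100.3 and 107 CPM. In the translation list EEF2KMT is a methyltransferase that modifies an elongation factor.

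Shares below 3.79% were found for zinc finger proteins (6 of 395), potassium and other ion channels (2 of 119), cytosolic ribosomal proteins (1 of 58), mitochondrial ribosomal proteins (MRPS18B of 56), respiratory chain subunits (ATP5MC1 of 61), receptor tyrosine kinases (EPHB3 of 37) and Wnt, Notch, Hedgehog and TGF-beta signalling (AXIN1 of 60). Histones had 0 of 76, olfactory receptors 0 of 350, keratins 0 of 132 and the textbook quadruplex promoters 0 of 13. With 13 genes, 0 cannot be told apart from a share of 3.79%. A core region only was found at 2 of these 13 genes and at 2 of the histones. It was found at 23 of 58 cytosolic ribosomal, 15 of 56 mitochondrial ribosomal and 18 of 61 respiratory chain genes. The counts were 64 of 395 for zinc finger proteins, 5 of 119 for ion channels, 3 of 37 for receptor tyrosine kinases and 9 of 60 for Wnt and related signalling. Olfactory receptors and keratins had 0, and all genes had 2649 of 13837. A low share of upstream regions thus did not mean few consensus regions in every list.

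The mitochondrial genome held 3 of the 539 regions, named by position for ND5, ND6 and COX2, with 1122 ± 181, 1021 ± 144 and 626 ± 97.6 CPM in their windows (SD, n = 3). All 3 densities were above that of every nuclear region, and the region at ND5 was 4463 bp long. These 3 were left out of the medians and motif shares above. Names by position are uncertain there, since other genes lie close by. Among windows that no peak touched and that were not named as protein-coding, the 721 on chromosome 1 beyond 200 Mb averaged 12.1 ± 0.434 CPM, against 8.62 ± 0.461 CPM for the 38277 on the rest of the autosomes (SD, n = 3). That segment held 15 upstream regions (2.78%), among them B3GALNT2 and SDCCAG8, and the part of its higher background in their values was not tested.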

How the data were processed

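The submitters' processing notes name the build hg38 and the tools cutadapt, BWA, Picard, MACS2 and bedtools, with no roles, versions or settings. The authors deposited raw read counts over 58381 windows of 400 bp for every one of the 9 ChIP libraries, 200 bp to each side of TSSs of GENCODE release 28, per the names of the deposited files and their values, with no scaling for depth or input. They also deposited 3 peak lists, 1 for each biological replicate, that give positions only; the peak threshold is not given in the sources used here. Whether reads marked as duplicates were counted is also not given. Groups and technical numbers came from the titles.

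Counts were divided by the library's total in windows to give CPM, and technical libraries were averaged. Windows were named by the RefSeq (GRCh38.p14) 5′ end within 200 bp on the same chromosome, with the strand from the promoter table where it gives one; 36254 windows were named, 14218 of them protein-coding, and 264 genes of unknown strand reached at both ends were dropped. Regions whose midpoint lay 150 to 1000 bp upstream of the nearest protein-coding window centre were kept. Shares carry 95% Wilson intervals, which cover counting error only. Replicates were compared with edgeR 4.0.16 (quasi-likelihood F test with 2 degrees of freedom, TMM, filter on low counts, adjusted p under 0.05), with DESeq2 1.42.0 as an alternative, in R 4.3.3; the code was tested on simulated data. The spread in that test is technical. Other steps used Python 3.11.15, pandas 2.3.3 and scipy 1.17.1.

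Named genes followed a rule: the highest lowest-of-9 windows, the lowest means, the longest regions, other-gene windows, genes with a further region, members of 27 gene lists, the edges of the rule, and for sequences the promoters best covered with the most runs. Genes outside that rule are named as examples, chosen after their values were seen: ING2, ECI2, GSK3B, PRRT2 and TRAPPC4, list members given without a value, and the pairs of neighbouring starts. The regions, gene lists and tests were chosen with earlier results of these data known. Some list members are not reported here.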

Additional observations from a re-analysis of the deposited data

How the results depend on the processing

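The number of upstream regions was 539 and ranged from 378 (peaks overlapping by 50% of both) to 622 (protein-coding starts named within 1000 bp), and from 556 to 682 when a biological replicate was left out. Without the filter on low counts 25 windows differed between biological replicates, 0 of them at upstream regions, where 17.5% were at an unadjusted p under 0.05 against 6.73% in all; leaving out a single library gave 0 to 1 windows (1 without BioRep1 library 1 and 1 without BioRep3 library 2). Technical numbers did not pair the libraries: the deviations of same-numbered libraries correlated at -0.0168 to 0.0199, and with the technical number as a replicate block 0 windows were called. The ratio of untouched to peak-free windows was 3.51 to 3.89 under other scalings and filters and 3.79 to 3.99 without a replicate; alternatives chosen after seeing the data gave 3.01 with no other region near and 1.79 with no peak in the window either. With means in place of medians, untouched windows were at 0.713 times core windows. The share of regions at another TSS was 5.94% within 50 bp, 21.2% within 300 bp and 19.1% anywhere in the region. It was 32.1% with RefSeq starts added, a setting chosen after seeing the data that could count the start that named the window. The share sharing a TSS with another region was 18.0% under the 50% overlap, 24.6% with gaps up to 100 bp merged, 32.3% to 43.3% without a replicate, highest without BioRep1, and 12.4% within 1000 bp, the last chosen after seeing the data. The motif share was 67.9% with 1 to 12 bases between runs, 12.01% with runs of 4 guanines, and, chosen after seeing the data, 40.3% where the region lay outside the 250 bases. The causes of these differences were not tested.

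The windows hold reads within 200 bp of a start only, so regions farther upstream have no count of their own. The peak lists give no heights. Names rest on position, and a window can carry the name of a neighbouring or overlapping gene. No genome was used, so only promoter sequences near RefSeq starts were searched for motifs, not the regions themselves. Depth allowed medians over many windows with a spread of a few percent, while single windows near 10 CPM rest on few reads.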
